A study of Mus musculus with 60 samples.

Results

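The mitochondrially encoded genes were taken as every row of the deposited expression table whose gene name begins with mt-, which gave 37 of 55414 genes: 13 mRNA genes, 2 rRNA genes and 22 tRNA genes. They were read in 60 RNA-seq libraries made from DBA2/J mice, from their medial prefrontal cortex (mPFC). The mice expressed GFP-L10a, a green fluorescent protein fused to a protein of the large cytosolic ribosomal subunit. IP libraries hold the RNA recovered with an anti-GFP antibody and are labelled aPVT projector. Input libraries are bulk mPFC with no antibody. Each fraction has 5 groups of 6 libraries: the subtypes SA, SA:ANH, ANH and RES, and the group NS. The study exposed mice to 5 days of social defeat stress, and the sources used here do not spell out the group names, which groups were exposed, or the animals' age and sex. They also do not give the promoter or vector that drove GFP-L10a, or whether libraries came from separate animals, so p-values measure the spread between libraries, which may in part be technical.

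The mitochondrial genome is a small circle transcribed from both strands into long precursors, from which tRNAs are cut out and the mRNAs and rRNAs released. Its mRNAs encode core subunits of respiratory complexes I, III and IV and of ATP synthase, and they are translated inside the organelle on mitochondrial ribosomes built around its own rRNAs. All other subunits of these complexes, and the proteins that transcribe and translate the mitochondrial genome, come from nuclear genes read by cytosolic ribosomes. L10a belongs to the cytosolic ribosome, and neurons depend heavily on respiration.

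All 37 genes had the same position in the deposited table and in the GENCODE M21 annotation of GRCm38, and only 1 of the 13 mRNA genes, mt-Nd6, lies on the minus strand. Nuclear genes carry positions other than those of GRCm38 there, of a build that no source used here names. Library totals ran from 19078928 to 27073456 counts. Of these, mitochondrial genes held 4251 to 11760 counts per IP library and 306296 to 516198 per Input library, so a low mitochondrial mRNA is measured far less precisely in IP. In bulk tissue, and in a pulldown from it, fewer cells of a type and less RNA per cell cannot be told apart.

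Part of the mitochondrial sequence also lies in the nucleus, and this limits what a count on a single gene means. Against GENCODE M21 transcripts, 7 mRNA genes had a nuclear copy that was at least 99% identical, and 5 of these copies matched without a mismatch over the aligned bases. All 7 copies fall on chromosome 1, within 4663 bases from 24650616 to 24655278 in the deposited positions. Gm28437 matched 783 of the 784 bases of mt-Co3, and Gm28439 matched 876 of the 1378 bases of mt-Nd4. A single substitution separated mt-Nd3 from Gm28438, T3C, and a single substitution separated the aligned 483 bases of mt-Co1 from Gm29216, A1066T, both counted from 1 at the 5′ end of the mitochondrial gene. The first 60 bases of mt-Co3 and of its copy are shown because they do not differ. For mt-Nd3 and mt-Co1, 60-base windows that hold the substitution are shown, with those of their copies. Capitals mark the base that differs. The GRCm38 windows are chrM:9459-9518 (+) and chr1:24613060-24613119 (-) for mt-Nd3 and Gm28438, chrM:6390-6449 (+) and chr1:24616129-24616188 (-) for mt-Co1 and Gm29216, and chrM:8607-8666 (+) and chr1:24613912-24613971 (-) for mt-Co3 and Gm28437.
mt-Nd3: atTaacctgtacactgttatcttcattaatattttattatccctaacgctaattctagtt
Gm28438: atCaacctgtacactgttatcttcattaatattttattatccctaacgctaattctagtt
mt-Co1: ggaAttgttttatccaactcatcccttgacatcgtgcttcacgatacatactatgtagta
Gm29216: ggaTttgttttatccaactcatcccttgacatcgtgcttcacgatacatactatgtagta
mt-Co3: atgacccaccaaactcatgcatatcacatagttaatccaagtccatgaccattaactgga
Gm28437: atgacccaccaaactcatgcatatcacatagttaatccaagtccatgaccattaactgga

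The deposited counts were divided between such pairs. Of the counts on mt-Co3 and Gm28437, a median of 39.5% lay on mt-Co3 in IP and 46.4% in Input. The mt-Co1 row took 62.6% in IP and 67.5% in Input of the counts it shares with Gm29216, and the mt-Nd4 row, whose copy covers only part of it, took 98.6% in IP and 98.5% in Input. The split of mt-Nd3 varied widely where counts were few, between 0% and 77.7% of the pair in IP and between 32.9% and 45.0% in Input. The 7 genes with a copy at least 99% identical held whole-number counts in at most 3 of the 60 libraries. Of the 30 genes without one, 23 did so in all 60, and most of these were tRNA genes. Among the mRNA genes without one, mt-Nd1 and mt-Cytb were whole in all 60 libraries. mt-Nd6 was whole in 59, mt-Atp8 in 53, mt-Nd5 in 32 and mt-Nd2 in 5. Copies under 99% identity were not added. They were Gm13339 of mt-Nd2 (96.7%), Gm4076 of mt-Nd5 (95.2%), Gm13340 of mt-Co1 (97.6%) and Gm13341 of mt-Co2 (95.9%). Levels below are in CPM, the count of a gene relative to the total of its library. Adding the 7 copies to their mitochondrial genes was tried for every comparison, after seeing the data, and is given where it changed a call or a direction.

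**Figure D1:**
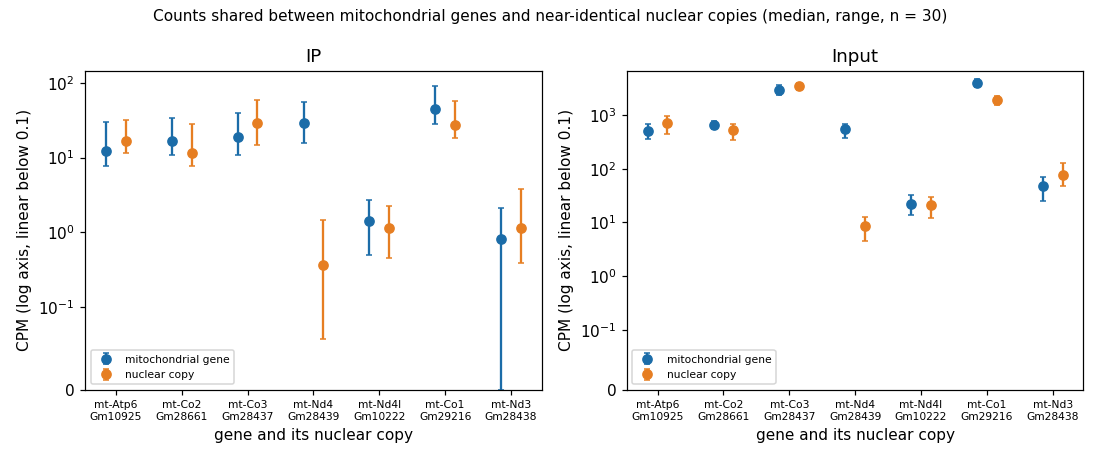
CPM (log axis, linear below 0.1) of 7 mitochondrial genes and of their near-identical nuclear copies in IP (left) and Input (right). Points are medians and bars the range over 30 libraries. The members of a pair lie close together, except mt-Nd4 and Gm28439, where the copy holds few counts.

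The tRNA genes are 59 to 75 bases long, shorter than the 100-base reads. Whether their counts came from mature tRNAs or from longer precursors was not tested. The tRNAs for glutamine (mt-Tq) and for serine (mt-Ts1) are shown because they had the highest tRNA counts in Input. They are read from GRCm38 at chrM:3772-3842 (-) and chrM:6870-6938 (-), and mt-Ts1 overlaps the end of mt-Co1, at 6872, on the opposite strand.
mt-Tq: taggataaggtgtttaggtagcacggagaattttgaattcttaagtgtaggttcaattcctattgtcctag
mt-Ts1: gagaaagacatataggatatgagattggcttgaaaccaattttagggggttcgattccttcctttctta

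Mitochondrially encoded RNA was scarce in IP. It took 0.0289% ± 0.00932 of the counts of an IP library and 1.76% ± 0.209 of an Input library (SD, n = 30 each), so the IP share was 0.0164 of the Input share. The shares ran from 0.0177% to 0.0506% in IP and from 1.35% to 2.13% in Input, and the fractions did not overlap. All 35 members that passed the low-count filter in the fit of both fractions were lower in IP at an adjusted p under 0.05, where 42.6% of all 18937 genes tested were lower and 32.8% higher (edgeR quasi-likelihood test, Benjamini-Hochberg adjusted). The 2 members that did not pass were the tRNA genes for tryptophan and arginine, mt-Tw and mt-Tr. Over the 13 mRNAs the median log2 fold change of IP over Input was -5.05, beside a median of -0.08 over all genes tested.

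The members were not lowered equally. The rRNA of the large mitochondrial ribosomal subunit, mt-Rnr2, had a log2 fold change of -7.15 ± 0.07 (SE; adjusted p = 2.13e-64), and that of the small subunit, mt-Rnr1, one of -6.50 ± 0.09 (adjusted p = 2.34e-57). Among the mRNAs, mt-Co3 and mt-Co1, core subunits of cytochrome c oxidase (complex IV), had -7.13 ± 0.06 and -6.35 ± 0.05, and mt-Co3 had -6.94 with its nuclear copy added. Their partner mt-Co2, which receives electrons from cytochrome c, had -5.16 ± 0.04. Cytochrome b of complex III, mt-Cytb, and the ATP synthase subunits mt-Atp6 and mt-Atp8 lay close to it at -5.23 ± 0.05, -5.24 ± 0.07 and -5.05 ± 0.10. The smallest differences were those of complex I subunits: mt-Nd4l had -3.95 ± 0.10, mt-Nd2 -4.05 ± 0.07, mt-Nd4 -4.14 ± 0.06, mt-Nd5 -4.16 ± 0.06, mt-Nd6 -4.34 ± 0.08 and mt-Nd1 -4.44 ± 0.07. Only mt-Nd3 of this complex was lower than those, at -5.93 ± 0.13. The mt-Nd6 gene overlaps the end of mt-Nd5 on the opposite strand, and the sources do not state whether counting used strand, so reads from the 2 strands cannot be told apart there.

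**Figure D2:**
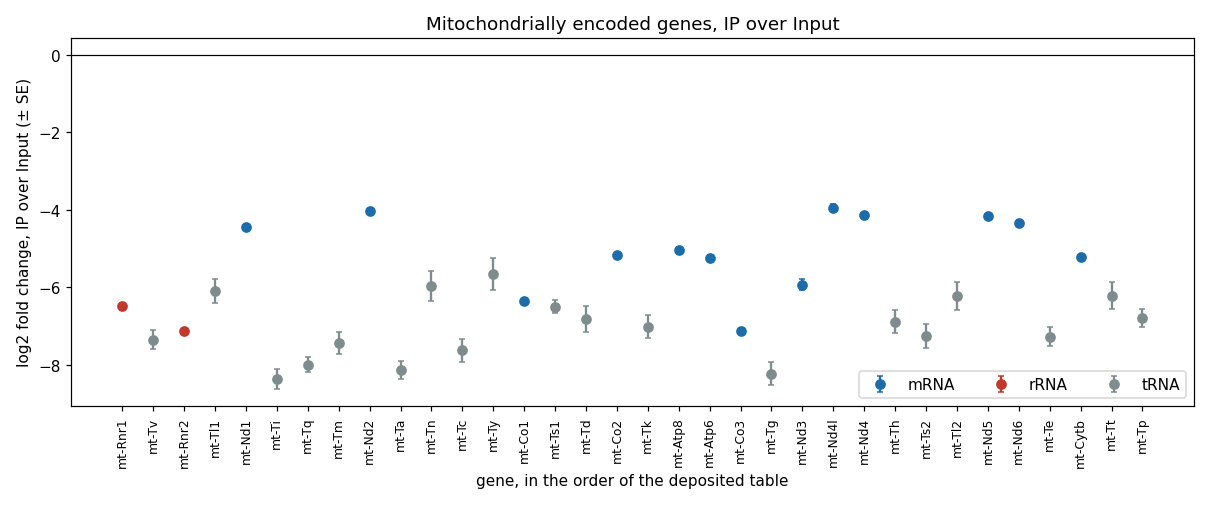
Log2 fold change of IP over Input (vertical axis) with its standard error for 34 mitochondrially encoded genes, in the order of the deposited table. mt-Tf, at 0 in every IP library, is left out. All lie below 0, and complex I mRNAs such as mt-Nd4l (-3.95) and mt-Nd2 (-4.05) lie nearest to it.

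The make-up of the mitochondrial counts therefore differed between fractions. mt-Rnr2 held a median of 13.7% of all mitochondrial counts in IP and 31.1% in Input, and mt-Co3 held 7.61% in IP and 16.8% in Input. In the other direction, mt-Nd1 held 13.1% in IP and 4.71% in Input, mt-Nd4 held 10.5% in IP and 3.09% in Input, and mt-Nd2 held 5.34% in IP and 1.47% in Input. For each of these 5 genes no IP library overlapped any Input library. For mt-Co1 the medians were 16.9% in IP and 22.7% in Input, with overlap, and for mt-Rnr1 they were 2.54% in IP and 3.78% in Input, also with overlap.

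Levels can be compared between genes only per length. On that scale, with the counts as deposited, mt-Nd1 was the highest in IP, at 39.3 ± 13.1 CPM per kilobase, followed by mt-Co1 at 32.1 ± 11.2, mt-Cytb at 29.2 ± 8.81, mt-Co3 at 27.6 ± 10.3 and mt-Co2 at 27.2 ± 9.50 (SD, n = 30). Each SD takes in differences between the 5 groups, which the genes share. It does not measure the spread of a difference between genes of the same library, which was not tested. In Input the order was mt-Co3 at 3780 ± 386 CPM per kilobase, mt-Rnr2 at 3436 ± 538, mt-Co1 at 2574 ± 202 and then, well below, mt-Cytb at 1090 ± 106 (SD, n = 30). In Input mt-Nd1 followed mt-Co2, at 855 ± 138. The lowest mRNA was mt-Nd3 in IP, at 2.40 ± 1.42 CPM per kilobase, and mt-Nd4l in Input, at 75.1 ± 14.1. The order depends on the split with the nuclear copies. With their counts added, mt-Co3 was the highest in IP at 68.1 ± 24.5 CPM per kilobase, followed by mt-Co1 at 51.6 ± 17.8, mt-Co2 at 46.4 ± 16.6, mt-Atp6 at 46.4 ± 13.9 and mt-Nd1 at 39.3. mt-Nd6 was then the lowest in both fractions, at 4.83 ± 1.63 CPM per kilobase in IP and 99.9 ± 25.5 in Input, while mt-Nd3 stood at 6.36 ± 2.65 in IP and mt-Nd4l at 145 ± 26.3 in Input.

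**Figure D3:**
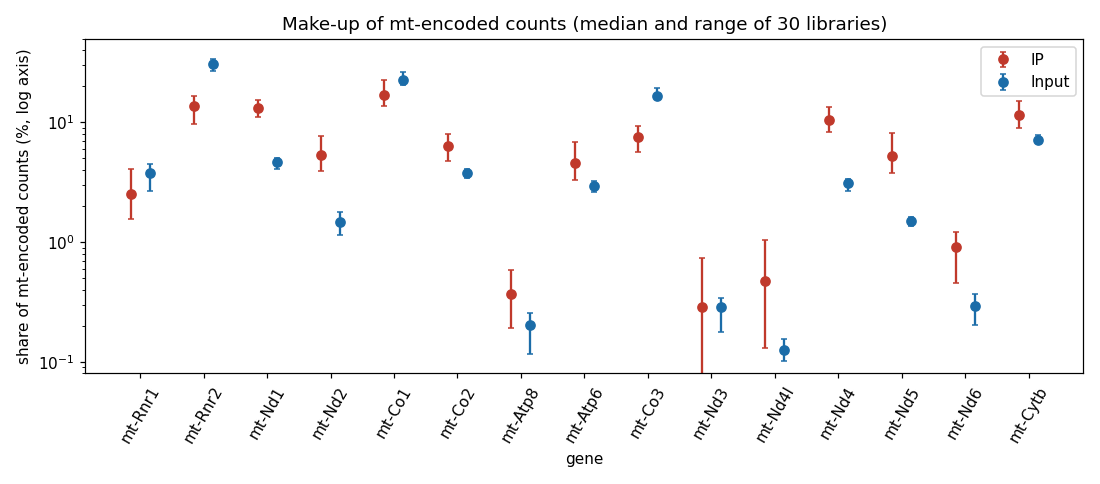
Share of all mitochondrially encoded counts (percent, log axis) held by each mRNA and rRNA gene in IP and Input. Points are medians and bars the range over 30 libraries, and the IP range of mt-Nd3 reaches 0. mt-Rnr2 and mt-Co3 took larger shares in Input, and mt-Nd1, mt-Nd2, mt-Nd4 and mt-Nd5 larger shares in IP.

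The tRNA genes were almost uncounted in IP. All 22 together received 261 counts over the 30 IP libraries, between 2 and 20 in each, and 48661 counts over the 30 Input libraries, between 485 and 3324 in each. The phenylalanine tRNA, mt-Tf, had 0 counts in every IP library and 914 counts in Input. mt-Ts1 had 79 counts in IP and 7988 in Input, and mt-Tq had 43 in IP and 12338 in Input. No tRNA gene passed the low-count filter within the IP libraries, so differences between groups could be tested there for the 13 mRNAs and 2 rRNAs alone.

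Nuclear genes that work with the mitochondrial genome were not lower as a group. Of 75 nuclear genes for subunits of the respiratory complexes and ATP synthase, 48 were higher and 17 lower in IP than in Input, with a median log2 fold change of 0.12. The 75 include 4 genes of complex II, which has no mitochondrially encoded subunit, and of these 0 were higher and 3 lower. Of 78 genes for proteins of the mitochondrial ribosome, 44 were higher and 15 lower, with a median of 0.08. The 4 with the smallest p were Mrps34, Mrpl50, Mrps12 and Mrpl20, all higher in IP, with Mrps34 at 0.66 ± 0.02. Of 44 genes for replication, transcription, RNA processing and translation in mitochondria, 17 were higher and 14 lower, beside 32.8% of all genes higher and 42.6% lower. Those with the smallest p were Tfb2m, Rexo2, Trmt10c and Fastk, all higher in IP. In that list the methyltransferase-related transcription factor Tfb2m had 0.96 ± 0.06 and Trmt10c, a subunit of mitochondrial RNase P, had 1.12 ± 0.07.

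The labelled cell type was checked against marker genes. Excitatory neuron markers were mostly higher in IP, in 9 of 10 genes, as were 8 of 9 markers of layer 5 extratelencephalic neurons. Over all genes, 32.8% were higher and 42.6% lower. All 10 astrocyte and all 10 oligodendrocyte markers were lower in IP, with median log2 fold changes of -3.97 and -3.23, and all 5 red cell genes were lower, with a median of -5.67. Of 10 inhibitory neuron markers, 9 were lower and 1 higher, with a median of -3.84. All 10 microglia and all 10 endothelial and mural markers were lower, with medians of -5.68 and -5.24. Astrocyte markers still summed to 246 to 366 CPM per IP library, against 2855 to 3153 CPM per Input library. The part of RNA from other cells in the mitochondrial counts of IP was not tested.

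The libraries were next compared between each subtype and NS within a fraction, which asks how the groups of the stress study differ. All these comparisons share the NS libraries of their fraction, so they are not independent of each other. In IP, an F-test for any difference among the 5 groups called 12 of the 15 members tested, where it called 33.1% of all 16670 genes. mt-Nd3 (adjusted p = 0.368), mt-Nd4l (adjusted p = 0.731) and mt-Atp8 (adjusted p = 0.0962) did not pass this edgeR test. The mitochondrial share of an IP library averaged 0.0432% ± 0.00554 in SA, 0.0302% ± 0.00862 in SA:ANH, 0.0239% ± 0.00385 in ANH, 0.0268% ± 0.00216 in RES and 0.0202% ± 0.00247 in NS (SD, n = 6 each).

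**Figure D4:**
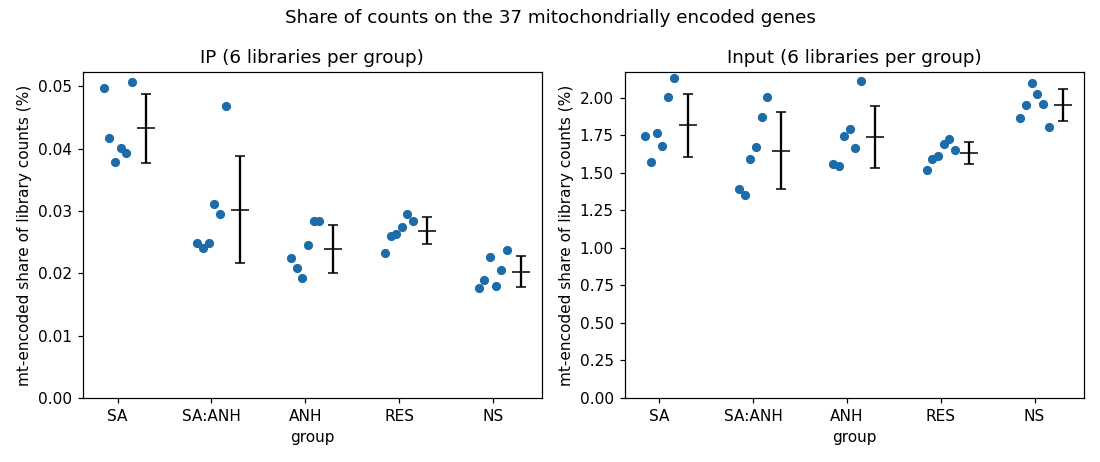
Share of library counts on the 37 mitochondrially encoded genes (percent) in each of 6 libraries per group, for IP (left) and Input (right), with the mean and SD of each group beside the points. In IP every SA library lies above every NS library, and 1 SA:ANH library, at 0.0468%, stands apart from its group. Both axes start at 0 and differ in scale.

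In SA pulldowns, mitochondrially encoded RNA was higher. Relative to NS, 13 of the 15 members tested were higher in IP and none was lower, where 9.39% of all genes tested were higher and 7.2% lower, and the mean share was 2.14 times that of NS. The median log2 fold change of the 15 members was 1.08, beside 0.02 over all genes. For 11 members every SA library lay above every NS library, and how many of all genes did so was not counted. The 2 that did not pass were mt-Nd3, at 0.18 ± 0.58 (SE; adjusted p = 0.890), and mt-Nd4l, at 0.28 ± 0.35 (adjusted p = 0.667). With their nuclear copies added, mt-Nd3 passed the edgeR test, at 0.90 and an adjusted p of 0.0297, and mt-Nd4l did not (0.36, adjusted p = 0.294).

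The rRNA of the large mitochondrial subunit differed most. mt-Rnr2 had a lowest, median and highest value of 52.2, 64.6 and 82.7 CPM in SA IP, against 20.2, 22.4 and 31.3 CPM in NS IP. The groups did not overlap, and the log2 fold change was 1.46 ± 0.15 (SE; edgeR adjusted p = 2.41e-09). mt-Rnr1 had 8.51, 9.95 and 16.5 CPM in SA IP, against 4.17, 5.29 and 6.77 CPM in NS IP, again without overlap, with 1.14 ± 0.21 (adjusted p = 0.000145).

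The complex IV subunits were raised to a like degree. mt-Co1, the catalytic subunit, had a lowest, median and highest value of 70.3, 78.0 and 91.3 CPM in SA IP, against 28.2, 34.3 and 46.5 CPM in NS IP. Every SA library was above every NS library (1.11 ± 0.11, adjusted p = 4.89e-09). mt-Co2 had 24.3, 29.6 and 33.8 CPM in SA IP, against 10.9, 13.9 and 16.1 CPM in NS IP (1.12 ± 0.12, adjusted p = 1.46e-08). mt-Co3 had 26.5, 34.6 and 38.9 CPM in SA IP, against 14.2, 14.8 and 18.3 CPM in NS IP (1.12 ± 0.15, adjusted p = 5.45e-07). Neither gene's SA and NS libraries overlapped.

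Cytochrome b and ATP synthase subunits followed. mt-Cytb, which has no nuclear copy at 99% identity, had a lowest, median and highest value of 40.1, 48.4 and 56.9 CPM in SA IP, against 18.5, 22.5 and 27.5 CPM in NS IP (1.09 ± 0.13, adjusted p = 8.00e-08). Its groups did not overlap. mt-Atp6, part of the proton channel, had 14.96, 17.7 and 29.8 CPM in SA IP, against 7.74, 9.64 and 9.85 CPM in NS IP (1.07 ± 0.18, adjusted p = 4.73e-05). mt-Atp8, at 0.820, 1.43 and 2.41 CPM in SA IP, against 0.545, 0.686 and 0.968 CPM in NS IP, overlapped and had 1.08 ± 0.35 (adjusted p = 0.0284). It no longer passed with voom (adjusted p = 0.0534), without the low-count filter (0.109) or in a fit of the 12 libraries alone (0.0621).

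Of the 7 complex I subunits, which together form part of the proton-pumping arm of NADH dehydrogenase, 5 were higher in SA IP. mt-Nd1 had a lowest, median and highest value of 46.7, 50.2 and 69.4 CPM in SA IP, against 21.1, 26.3 and 36.7 CPM in NS IP (1.02 ± 0.16, adjusted p = 9.00e-06). mt-Nd5 had 19.5, 22.0 and 22.9 CPM in SA IP, against 8.55, 10.3 and 11.2 CPM in NS IP (1.11 ± 0.18, adjusted p = 1.72e-05). Both pairs of groups were fully apart, as were those of mt-Nd2 and mt-Nd4, with log2 fold changes of 0.82 ± 0.18 and 0.97 ± 0.15. mt-Nd6 overlapped, with 1.82, 3.53 and 4.82 CPM in SA IP, against 1.19, 1.77 and 2.42 CPM in NS IP (0.92 ± 0.25, adjusted p = 0.00762).

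In mean share, SA:ANH pulldowns lay between SA and NS, as ANH and RES pulldowns also did. In SA:ANH IP, 11 of 15 members were higher than in NS and none was lower. Of all genes, 11.3% were higher and 8.45% lower. The median log2 fold change was 0.54 over the members and 0.01 over all genes. Both the count of members and the mean share rested in part on 1 library. By median, the share was 0.0272% in SA:ANH IP and 0.0269% in RES IP. SA:ANH replicate 6 had a mitochondrial share of 0.0468%, while the other 5 SA:ANH libraries lay between 0.0241% and 0.0311%. Without it, 6 members were called: mt-Rnr2, mt-Co1, mt-Co2, mt-Co3, mt-Nd4 and mt-Cytb, and the median over the 15 members was 0.39.

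Of these 6, mt-Rnr2, mt-Co2 and mt-Cytb had groups that did not overlap, and mt-Co1, mt-Co3 and mt-Nd4 overlapped with NS. mt-Rnr2 had a lowest, median and highest value of 34.6, 40.9 and 66.8 CPM in SA:ANH IP, against 20.2, 22.4 and 31.3 CPM in NS IP, with no overlap (0.86 ± 0.14, adjusted p = 2.38e-05, and 0.70 without the library, adjusted p = 0.000184). mt-Cytb had 28.2, 30.2 and 53.5 CPM in SA:ANH IP, against 18.5, 22.5 and 27.5 CPM in NS IP, and these were also apart (0.60 ± 0.13, adjusted p = 0.000577, and 0.43 without the library, adjusted p = 0.00482). mt-Co2 had a log2 fold change of 0.54 ± 0.12 (adjusted p = 0.00101). mt-Nd2 passed only narrowly (0.49 ± 0.18, adjusted p = 0.0476) and did not pass with other scaling factors, with voom, without the low-count filter or in a fit of the 12 libraries.

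In ANH pulldowns 3 of 15 members were higher than in NS and none was lower, where 3.02% of all genes were higher and 4.37% lower. They were mt-Nd2 (0.61 ± 0.18, adjusted p = 0.0272), mt-Atp6 (0.61 ± 0.18, adjusted p = 0.0329) and mt-Cytb (0.45 ± 0.13, adjusted p = 0.0235). mt-Atp6 had a lowest, median and highest value of 11.8, 13.9 and 17.6 CPM in ANH IP, against 7.74, 9.64 and 9.85 CPM in NS IP, without overlap. With its copy Gm10925 added, it did not pass (0.40, adjusted p = 0.117). The complex IV genes and the rRNAs lay near NS in this group, with mt-Co1 at -0.05 ± 0.12 and mt-Rnr2 at 0.09 ± 0.15.

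In RES pulldowns 2 of 15 members were higher than in NS and none was lower, where 2.25% of all genes were higher and 2.11% lower. mt-Rnr2 had a lowest, median and highest value of 31.5, 38.5 and 45.4 CPM in RES IP, against 20.2, 22.4 and 31.3 CPM in NS IP (0.65 ± 0.14, adjusted p = 0.00456). mt-Nd5 had 13.7, 15.8 and 22.5 CPM in RES IP, against 8.55, 10.3 and 11.2 CPM in NS IP (0.69 ± 0.18, adjusted p = 0.0183). Both were without overlap. The median log2 fold change over the 15 members was 0.39, beside 0.01 over all genes.

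**Figure D5:**
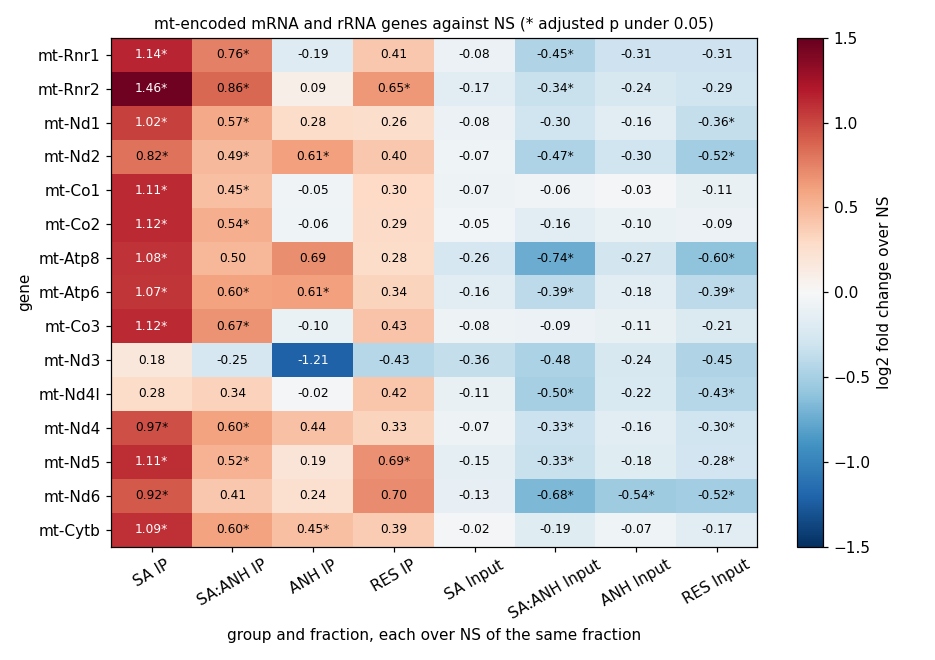
Log2 fold change over NS of the same fraction for 15 mitochondrially encoded mRNA and rRNA genes (rows), in 4 subtypes in IP and in Input (columns), with an asterisk at an adjusted p under 0.05. SA IP holds the strongest rises, up to 1.46 for mt-Rnr2, and the called values in Input are all negative.

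In Input no member was called higher in any subtype. In SA Input none of the 35 members tested was called in either direction, where edgeR called 1.23% of all 18170 genes higher and 1.6% lower. At an unadjusted p under 0.05 there were 4, and DESeq2 and limma voom also called 0. The mitochondrial share averaged 1.82% ± 0.211 in SA Input and 1.95% ± 0.105 in NS Input (SD, n = 6 each). mt-Rnr2 had a lowest, median and highest value of 4402, 5467 and 6824 CPM in SA Input, against 5662, 6358 and 6916 CPM in NS Input, and the groups overlapped (-0.17 ± 0.10, adjusted p = 0.452).

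In SA:ANH Input 13 of 35 members were lower and none was higher, where 3.1% of all genes were lower and 2.54% higher. They were 7 mRNAs, both rRNAs and 4 tRNA genes, and the median log2 fold change was -0.33 over the 13 mRNAs, beside 0.00 over all genes. mt-Nd5 had a lowest, median and highest value of 204, 235 and 276 CPM in SA:ANH Input, against 276, 304 and 327 CPM in NS Input (-0.33 ± 0.07, adjusted p = 0.00225). mt-Nd6 had 30.05, 40.3 and 53.3 CPM in SA:ANH Input, against 56.6, 67.3 and 73.5 CPM in NS Input (-0.68 ± 0.13, adjusted p = 0.00186). Those 2 were the only mRNA or rRNA genes whose groups were fully apart, and 6 tRNA genes also had every SA:ANH library below every NS library. Such separation was not counted over all genes. mt-Atp8 had the largest difference among the mRNAs, at -0.74 ± 0.15 (adjusted p = 0.00241), while mt-Co1 lay at -0.06 ± 0.05 and mt-Co3 at -0.09 ± 0.06. The called tRNA genes were those for isoleucine (mt-Ti, -0.94 ± 0.25), methionine (mt-Tm, -0.96 ± 0.28), serine (mt-Ts1, -0.92 ± 0.23) and leucine (mt-Tl2, -1.53 ± 0.45).

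In RES Input, which is set against the same NS libraries, 8 of 35 members, all mRNAs, were lower and none was higher, where 1.27% of all genes were lower and 1.96% higher. mt-Nd2 had a lowest, median and highest value of 190, 211 and 247 CPM in RES Input, against 273, 315 and 336 CPM in NS Input (-0.52 ± 0.12, adjusted p = 0.0119), and mt-Atp8 had -0.60 ± 0.15 (adjusted p = 0.0173). Of the complex I subunits all but mt-Nd3 passed, and both ATP synthase subunits did. The 3 complex IV genes and mt-Cytb did not pass, with mt-Co3 nearest at -0.21 ± 0.06 (adjusted p = 0.0573). The RES libraries varied little, and 12 of the 15 mRNA and rRNA genes had every RES library below every NS library. How many of all genes were separated in this way was not counted. In ANH Input a single member was lower, mt-Nd6 (-0.54 ± 0.13, adjusted p = 0.0204), where 1.05% of all genes were lower and 1.57% higher.

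An F-test for any difference among the 5 Input groups called 20 of the 35 members, where it called 12.9% of all genes. These were 8 mRNAs and 12 of the 20 tRNA genes tested. All 22 tRNA genes had their highest group mean in SA Input, and how many of all genes did so was not counted. Within SA Input most of them were high or low in the same libraries, so they are not 22 separate results. None of the 20 tRNA genes tested was called in SA Input against NS. mt-Ts1 had a mean of 15.2 ± 5.40 CPM in SA, 7.42 ± 2.59 in SA:ANH, 8.86 ± 3.02 in ANH, 10.8 ± 2.70 in RES and 14.2 ± 2.48 in NS (SD, n = 6 each). mt-Tq had 23.7 ± 7.97 CPM in SA, 11.9 ± 3.73 in SA:ANH, 15.9 ± 4.75 in ANH, 17.2 ± 5.03 in RES and 18.4 ± 2.40 in NS. The SA and NS values of both tRNAs overlapped within their spread.

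Whether a subtype differed from NS unlike in the fractions was tested as an interaction in a fit of all 60 libraries. The IP difference exceeded the Input difference for 13 of 35 members in SA, where 4.49% of all genes did so and 4.55% did the reverse. It did so for 14 members in SA:ANH, beside 7.14% of all genes and 8.06% in reverse. In ANH there were 4 members, beside 1.77% and 1.85%, and in RES 8 members, beside 1.41% and 1.28%. No member went the other way in any subtype. For mt-Rnr2 the interaction was 1.61 ± 0.18 in SA (adjusted p = 8.56e-10), 1.18 ± 0.18 in SA:ANH (adjusted p = 1.66e-06), 0.34 ± 0.19 in ANH (adjusted p = 0.344) and 0.95 ± 0.18 in RES (adjusted p = 0.000550). With limma voom and library quality weights the counts were 7 in SA, 3 in SA:ANH, 0 in ANH and 1 in RES. Calls over all genes were not counted with voom.

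The nuclear partners of these genes were counted in the same comparisons, whose shares over all genes are given above. The list of 75 again holds the 4 genes of complex II. In SA IP, where 9.39% of all genes were higher, 61 of the 75 nuclear respiratory and ATP synthase genes were higher than in NS and 0 were lower, with a median log2 fold change of 0.28, and those with the smallest p were Ndufb7, Uqcrq, Ndufa6 and Ndufb9 at 0.35 to 0.49. In SA:ANH IP 63 were higher and 4 lower, with a median of 0.34, beside 11.3% of all genes higher and 8.45% lower. In ANH IP 0 were higher and 28 lower, with a median of -0.14, beside 3.02% and 4.37%. In RES IP 0 were called, with a median of 0.03. Of the 78 mitochondrial ribosomal proteins, 52 were higher in SA, 46 in SA:ANH and 0 in ANH and RES, and 9 were lower in ANH. Of the 44 genes that copy, transcribe and translate the mitochondrial genome, 3 were higher and 3 lower in SA:ANH IP. In ANH IP 0 were higher and 1 lower, and in RES IP 0 were called. In SA IP 4 of the 44 were higher and 0 lower, a share near the 9.39% of all genes that were higher. They included Slirp (0.52 ± 0.09, adjusted p = 3.23e-05), which stabilises mitochondrial mRNA, and Ssbp1 (0.41 ± 0.09, adjusted p = 0.00148), which binds its single-stranded DNA.

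Other RNAs and marker genes also differed between the IP groups. Over all genes tested, 9.39% were higher and 7.2% lower in SA IP, and 11.3% and 8.45% in SA:ANH IP. The shares were 3.02% and 4.37% in ANH IP, and 2.25% and 2.11% in RES IP. Of 9 noncoding RNAs tested, a list led by Meg3, Snhg11, Malat1 and Miat, 8 were higher in SA IP than in NS and 7 in SA:ANH IP, and the list summed to 1340 to 1770 CPM in SA IP and 670 to 1080 CPM in SA:ANH IP, against 411 to 460 CPM in NS IP. In ANH IP it summed to 361 to 496 CPM and in RES IP to 552 to 622 CPM. The 5 red cell genes summed to 38.0 to 50.05 CPM in SA IP, 41.5 to 51.1 CPM in SA:ANH IP, 23.8 to 27.9 CPM in ANH IP and 22.6 to 35.6 CPM in RES IP, against 14.3 to 23.1 CPM in NS IP. In Input the 5 red cell genes summed to 1458 to 1653 CPM in SA and 1433 to 1609 CPM in SA:ANH. They summed to 1490 to 1569 CPM in ANH and 1170 to 1386 CPM in RES, against 866 to 954 CPM in NS. Layer 5 extratelencephalic markers summed to 1579 to 1717 CPM in SA IP, 905 to 998 CPM in SA:ANH IP, 1125 to 1181 CPM in ANH IP and 1331 to 1392 CPM in RES IP, against 1475 to 1591 CPM in NS IP. Of 9 such genes, 5 were higher and 2 lower in SA IP, 9 were lower in SA:ANH IP, 8 in ANH IP and 4 in RES IP. Of 10 excitatory markers, 4 were lower and 0 higher in SA IP, and 4 were lower and 1 higher in RES IP. In SA:ANH IP 3 of them were lower and 2 higher, and in ANH IP 2 were lower and 2 higher. Astrocyte markers summed to 246 to 287 CPM in SA IP and 285 to 352 CPM in SA:ANH IP. Sums were 336 to 363 CPM in ANH IP and 299 to 366 CPM in RES IP, against 317 to 346 CPM in NS IP. Inhibitory neuron markers summed to 395 to 442 CPM in SA IP and 441 to 479 CPM in SA:ANH IP. Sums were 468 to 502 CPM in ANH IP and 460 to 517 CPM in RES IP, against 483 to 513 CPM in NS IP. Oligodendrocyte markers summed to 209 to 231 CPM in SA IP and 146 to 176 CPM in SA:ANH IP. Sums were 671 to 696 CPM in ANH IP and 967 to 1060 CPM in RES IP, against 248 to 295 CPM in NS IP. The part of these RNAs and cell types in the mitochondrial differences was not tested.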

How the data were processed

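RNA from mPFC was sequenced from IP and Input fractions, per the labels' protocols, as paired reads of 100 bases. The authors' deposited table holds expected counts per gene, of which 88.4% were whole within 1e-06. Bowtie2 2.2.3, TopHat2 2.0.13, Trimmomatic 0.32 and the build mm10 are listed in the submitters' processing notes, without their roles. No source used here gives the counting tool. Expected counts were rounded and tested with edgeR 4.0.16 (quasi-likelihood test, TMM factors, filterByExpr, Benjamini-Hochberg at 0.05 over all genes tested) in R 4.3.3. The fit of 60 libraries in 10 groups tested 18937 genes, that of 30 IP libraries 16670 and that of 30 Input libraries 18170. Alternatives were RLE factors, library totals, DESeq2 1.42.0, limma 3.58.1 voom, no filter, a replicate block, the 12 libraries compared, copies summed, and leaving out a library. CPM is the count scaled to a common library total. Members and lists were chosen with earlier results of these data known. All mRNA and rRNA members are described with values, tRNA members by counts, and up to 4 genes of a list are named by smallest p. Copies were found with blastn (at least 95% identity over 100 bases). No 2 libraries of a group agreed within sampling noise.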

Additional observations from a re-analysis of the deposited data

Results flagged for a closer look

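Of 160 sets of 6 libraries checked (the mitochondrial share and 15 genes in each group), 12 had 1 library farther from the others than Dixon's 95% limit allows, and chance gives about 1 in 20. Of these, 6 came from the same library, SA:ANH IP replicate 6, which was the highest of its group in the mitochondrial share (0.0468%) and in mt-Rnr1 (14.7 CPM), mt-Rnr2 (66.8 CPM), mt-Nd1 (67.5 CPM), mt-Nd4 (50.4 CPM) and mt-Cytb (53.5 CPM). ANH Input replicate 6 was the highest of its group in mt-Co1 (4693 CPM) and mt-Co3 (3516 CPM). mt-Atp6 was highest in SA IP replicate 6 (29.8 CPM) and lowest in RES Input replicate 1 (398 CPM). mt-Co3 was highest in NS IP replicate 3 (18.3 CPM), and mt-Nd5 in RES IP replicate 4 (22.5 CPM).

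By the interaction test, the log2 fold change over NS was higher (more positive) in IP than in Input for 13 members in SA, beside 4.49% of all genes, 14 in SA:ANH (7.14%), 4 in ANH (1.77%) and 8 in RES (1.41%). In part these are lower values in Input rather than higher ones in IP: mt-Nd6 in SA:ANH had 0.41 in IP, which did not pass, and -0.68 in Input.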

How the results depend on the processing

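IP against Input kept 35 members lower under every alternative that tested 35, and 37 without the low-count filter. The counts of members whose difference from NS was unlike in IP and Input fell to 7 (SA), 3 (SA:ANH), 0 (ANH) and 1 (RES) with limma voom and library quality weights. Without SA:ANH IP replicate 6, 6 members were higher in SA:ANH IP. In fits of the 12 libraries alone, 3 members were lower in ANH Input and 14 in RES Input. With a replicate block, 22 members were lower in SA:ANH Input and 3 in ANH Input. Calls over all genes were not counted for these alternatives, so a change in calls over all genes cannot be told from a change in the members. The labels do not say that a replicate number marks a shared animal or batch, so the block was not used. Deviations of equal numbers correlated above 0.1 in 1 of 24 subtype and NS pairs in IP, 3 of 24 in Input and 8 of 30 IP and Input pairs of a group, the last from -0.03 to 0.22. There 13 of 30 libraries correlated best with their own number, a hint from the data that some numbers may be shared between fractions. The mt share of counts, IP over Input, was 0.0211 for mRNAs and 0.00778 for rRNAs. For rRNAs alone the share over NS in IP was 2.63 in SA and 1.54 in RES. In IP, mt-Nd4l in ANH changed sign with library totals (0.0097), voom (0.064) and copies summed (0.25), and mt-Nd3 did so with copies summed in SA:ANH (0.60) and RES (0.19), and none of these passed. The cause was not tested. Low counts of mt-Nd3, mt-Nd4l and the tRNA genes limit what could be detected in IP.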
